A study of Homo sapiens with 9 samples.

Results

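The 200 brightest named spots of 9 whole-genome arrays of HK-1 cells, a cell line of nasopharyngeal carcinoma, were described across control cells and cells given baicalein, a flavone from the root of Scutellaria baicalensis. Their genes were chosen by measured brightness. A spot qualified where it named 1 gene and its net intensity (spot signal minus local background, in scanner units) exceeded, on every one of the 9 arrays, the 95th percentile of the empty spots, which carry no probe. Of 25378 spots that name a gene, 799 qualified, 18 of them were set aside because their names belong to the S100, keratin, metalloproteinase, cadherin or matrix glycoprotein genes, and the 200 with the highest mean log2 net intensity were kept. The 9 arrays comprise 3 of control cells, 3 of cells after 10 µM baicalein and 3 of cells after 20 µM. HK-1 cells were grown as a monolayer, and baicalein was applied for 24 h in serum-free medium before fresh medium was given for 24 h. The labels call the control untreated, whereas the study's methods name 1% DMSO as the control of all experiments. The study calls the arrays biological replicates of 1 cell line, and their number limits the precision.

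On a single-colour array, labelled cDNA of the cells binds to probes fixed on the glass, and each spot's fluorescence follows both the amount of a transcript and how well its own probe binds. Brightness therefore ranks spots, not transcripts, and a spot can be compared safely only with itself on another array. Genes that most cells transcribe strongly include those of ribosomal proteins, glycolysis and the cytoskeleton. Olfactory receptor genes are known for expression in sensory neurons of the nose. In bulk RNA, fewer cells that express a gene and less RNA per cell cannot be told apart.

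The brightest member was CLCN2, which encodes a voltage-gated chloride channel, with a geometric mean net intensity of 46266 over the 9 arrays. It was followed by TMEM216, a protein of the ciliary transition zone, at 45864 and by CYP1A2, a cytochrome P450 of drug metabolism that the aryl hydrocarbon receptor induces in liver, at 45339. The 15 brightest also included C17orf37, DGKZ, ZNF687, HIPK3, ZNF205, UPP2, RSPO2, MAP4K4, PRMT1, DNAI2 and ZNF720, with means between 41442 and 44858. They encode, among others, a diacylglycerol kinase (DGKZ), a secreted amplifier of Wnt signalling (RSPO2), an arginine methyltransferase (PRMT1) and a dynein chain of motile cilia (DNAI2). These levels are those the choice rested on, and they carry no test. The median member stood at 19948. The last members were GPCPD1 at 12785, BOLL at 12726 and POLD1, the catalytic subunit of DNA polymerase delta, at 12673, and the spots just below the limit were LOC143666 at 12667, GPR172A at 12618 and RAB7B at 12615.

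The promoter ends of 2 of these genes are shown because CLCN2 and CYP1A2, both among the 3 brightest members, lie far apart in their content of the dinucleotide CG. Each line gives the 250 bases before the RefSeq start of the gene, 5′ to 3′ on the gene's strand, in build GRCh38.p14, with every CG in capitals. CLCN2 lies on the minus strand at chr3:184361606-184361855 and CYP1A2 on the plus strand at chr15:74748595-74748844.
CLCN2: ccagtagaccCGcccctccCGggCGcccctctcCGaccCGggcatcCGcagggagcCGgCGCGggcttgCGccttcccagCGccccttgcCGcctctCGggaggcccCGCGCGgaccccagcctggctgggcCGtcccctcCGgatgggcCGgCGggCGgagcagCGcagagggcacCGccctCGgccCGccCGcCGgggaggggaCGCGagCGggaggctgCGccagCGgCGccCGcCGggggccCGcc
CYP1A2: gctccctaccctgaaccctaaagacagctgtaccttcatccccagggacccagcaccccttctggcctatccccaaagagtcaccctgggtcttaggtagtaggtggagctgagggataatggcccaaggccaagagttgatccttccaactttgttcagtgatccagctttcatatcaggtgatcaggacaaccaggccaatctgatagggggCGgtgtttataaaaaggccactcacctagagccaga
The CLCN2 window held 36 CG and the CYP1A2 window 1, against a median of 11 over 35116 RefSeq windows of the same length. As many as 36 CG were found in 4.85% of the windows and at most 1 in 14.7%. The letters GCGTG, the core of the site that the aryl hydrocarbon receptor binds, were in neither window on either strand, against 32.2% of all windows. Only 156 of the 200 members (78.0%) had a window, under the 80% needed for a statement on all members, so no share over the members is given.

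The names of 173 members are current RefSeq symbols, 22 are older symbols only, such as C17orf37 for MIEN1 and FAM178A for SLF2, and 5 had no match. Of the 195 matched members, 189 are protein-coding genes (96.9%, against 96.0% of all matched names on the array), and the other 6 include the small nucleolar RNA SNORA81 and the antisense RNA NCRNA00105. Members made up 0.788% of all named spots. Of 101 spots for ribosomal proteins 3 were members (2.97%), RPS15, RPL23 and RPL10, and these 3 were also all that passed the empty spots on all 9 arrays (3.15% of all named spots did). Among 303 spots for olfactory receptors, OR14C36 and OR13J1 were members (0.66%) and 5 passed on all arrays (1.65%). Members also included 8 of 617 zinc finger spots (1.30%), 3 of 226 for ion channels (1.33%, CLCN2, KCNJ4 and TRPV6), 2 of 71 for histones (2.82%, HIST1H4B and HIST1H2AK) and 2 of 51 for the proteasome (3.92%, PSMA1 and PSMC5). Shares close to or below that of all named spots were those of oxidative phosphorylation (1 of 118, 0.85%, ATP5G1), interferons and cytokines (1 of 166, 0.60%, CCL20) and solute carriers (2 of 461, 0.43%). These are shares of a choice by brightness, and they carry no test.

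No spot of 25 for housekeeping genes or of 16 for glycolytic enzymes was a member or passed the empty spots on all 9 arrays, and 18 and 12 of them passed on none. Of the housekeeping genes, the best spot of PFN1 (profilin) was above on 8 arrays, those of PPIA and TBP on 6, and that of EEF1A1, a translation elongation factor, on 0. The pairing of gene names with spots is that of the deposited files. It was not tested here, and every named value rests on it. Over all named spots, 73.1% passed on no array. The lists for cell cycle, hypoxia targets and targets of NRF2, the transcription factor of the oxidative stress response, held no member. Of 8 genes induced by the aryl hydrocarbon receptor, CYP1A2 was a member. AHRR, the receptor's repressor, exceeded the limit of the empty spots on every array, while CYP1A1, CYP1B1, NQO1 and TIPARP did so on none.

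Markers of the labelled cell type exceeded the empty spots only in part, as is so for named spots in general. Of 20 marker genes of squamous epithelium, 3 passed the empty spots on all 9 arrays. ITGA6 and ITGB4, of these 3, encode integrin chains of the epithelial anchoring junction. A further 13 passed on none, TP63, DSG3 and CDH1 among them. Counted by spot, 12% of the squamous markers passed on all 9 arrays (3.15% of all named spots) and 64% on none (73.1%). None of the 20 was a member, but the rule set aside the keratins and CDH1 by name, so for these that was fixed beforehand. Markers of fibroblasts passed on all arrays for 1 of 10 genes (PDGFRB), and those of leukocytes (0 of 10), endothelium (0 of 8) and neurons (0 of 7) for no gene. The summed net intensity of the squamous markers ranged between 35398 and 45644 in the control, 34771 and 43041 at 10 µM, and 29352 and 38105 at 20 µM, so the ranges overlapped.

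A second spot bore the name of a member for 60 members, with 72 such spots in all. Of these 72, 50 exceeded the empty spots nowhere (69.4%, against 73.7% of all named spots that are not members) and 3 on all 9 (4.17%, against 2.38%). The 3 belonged to HMGXB4, a DNA-binding protein with an HMG box, ETS2, a transcription factor, and FAM178A, with means of 8001, 4181 and 7140 where the member spots of the same names averaged 14718, 22934 and 13543. The sequences of the probes are not in the files used here, so whether the paired spots read the same transcript was not tested.

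The rule chose the members by their mean over these same arrays, so that their brightness on single arrays is a description. Between 140 and 183 of them were among the 200 brightest named spots of a single array, and 123 were so on all 9. The lowest ranks were held by single members on single arrays, down to 1652. Unadjusted by any scaling, the median net intensity of the members was 24274, 24567 and 21113 on the control arrays, 19477, 20393 and 21720 on the 10 µM arrays and 17710, 16272 and 20279 on the 20 µM arrays. The 20 µM arrays lay below every control array, and the 10 µM arrays reached into the control range. The same medians were 20.7, 22.6 and 20.0 times the median of the empty spots in the control, 15.7, 19.0 and 19.6 times at 10 µM and 13.9, 15.8 and 17.8 times at 20 µM. On this ratio neither dose overlapped the control. The 200 values on each array are drawn in the box plot of net intensity.

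**Figure D1:**
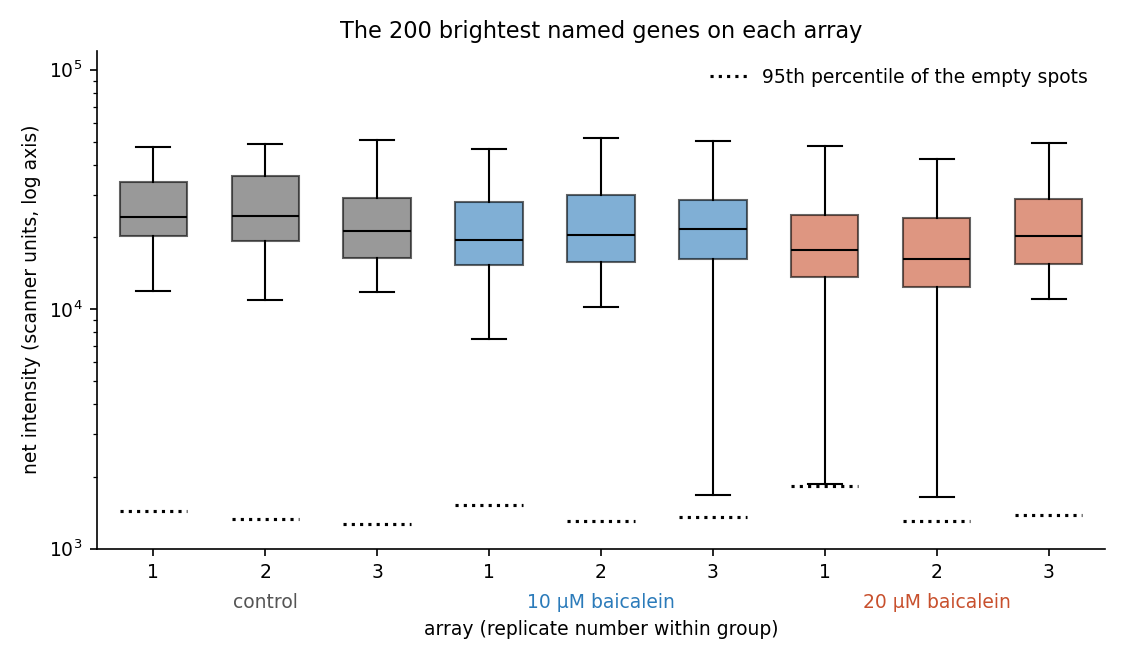
Net intensity of the 200 members on each of the 9 arrays (scanner units, log axis), by group and replicate number. Boxes span the middle 50% of members with the median as a line, whiskers reach the lowest and highest member, and dotted lines mark the 95th percentile of the empty spots. The medians are lowest on 20 µM replicates 1 and 2 (17710 and 16272), and single members fall close to the dotted line on 10 µM replicate 3 and 20 µM replicates 1 and 2.

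A pair of arrays stood apart in the surroundings of these spots. On 20 µM replicate 2 and control replicate 2, the local background at the members' spots was 1.74 and 1.64 times the running median of 15 neighbouring spots, and 196 and 135 of the 200 members exceeded 1.2 times. On the other 7 arrays the ratio lay between 0.998 and 1.01, and 1 to 35 members exceeded 1.2 times. On 20 µM replicate 2, the spot listed immediately before a member passed the empty spots' limit for 55.5% of the members, against 6.5% to 12% on the other arrays and 7.47% of all gene spots on that array. The spot listed after a member did so for 4.5%. Across the members, log2 net intensity of 20 µM replicate 2 correlated with that of the other arrays at 0.665 to 0.766 (Pearson's r over 200 spots that share the array design, given as a description), whereas 20 µM replicate 3 and control replicate 3 reached 0.932. Dye-labelled control spots named Cy3_IL_2 had median net intensities of 39124, 41023 and 42245 in the control, 39846, 42756 and 42386 at 10 µM and 40763, 40049 and 42006 at 20 µM, with no group apart from another. Whether the values of 20 µM replicate 2 belong to the spots they are listed under was not tested, nor was the part these surroundings have in the members' values. Counts at an unadjusted p under 0.05 are given without these 2 arrays as well. For some medians and members, values without 1 or both of them are added. Counts of groups that did not overlap are given with all arrays only.

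**Figure D2:**
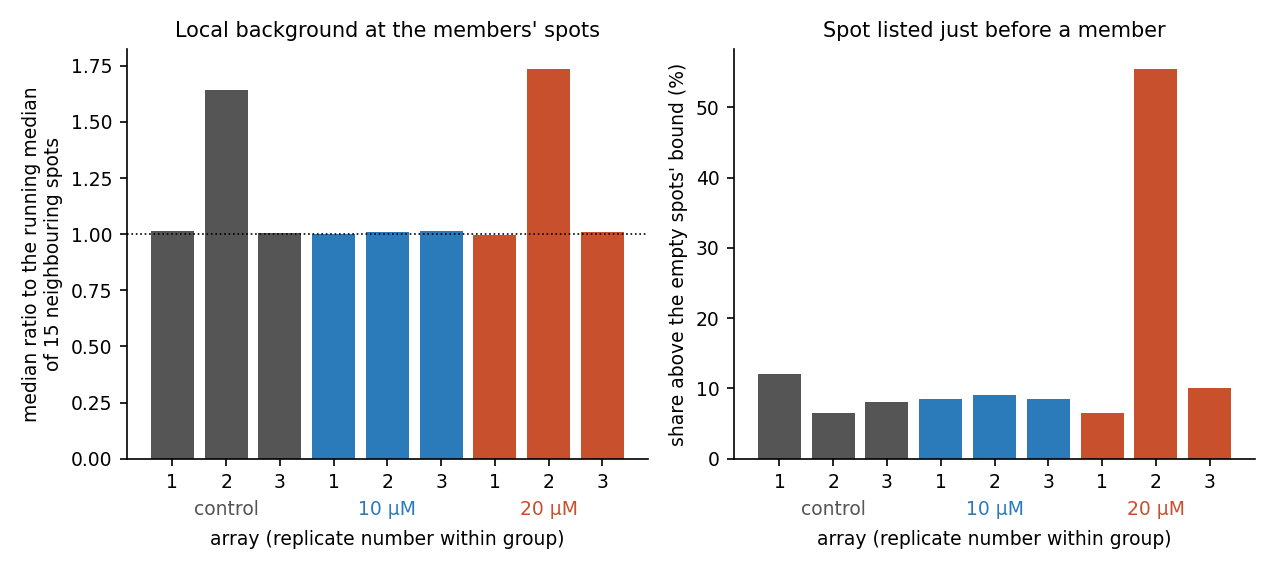
Left, median ratio of local background at the 200 members' spots to the running median of 15 neighbouring spots. Right, share of members (%) whose preceding spot lay above the 95th percentile of empty spots. Bars are the 9 arrays by group and replicate number. 20 µM replicate 2 and control replicate 2 stand at 1.74 and 1.64 on the left, and 20 µM replicate 2 alone stands at 55.5% on the right.

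For the comparison of doses, arrays were scaled to a common median and quantile-normalized, so that the following levels and differences are log2 net intensities after these steps. The within-group SD of a member ranged between 0.036 and 1.83, with a median of 0.16. The steadiest members over all 9 arrays were MAP4K4, a stress-signalling kinase (SD 0.037), ZNF720 (SD 0.054) and NCRNA00105 (SD 0.056), all among the 16 brightest. Quantile normalization gives equal ranks equal values, so these SDs follow the steadiness of rank. In net intensity, MAP4K4 had means of 43106, 41459 and 40976 in the control, at 10 µM and at 20 µM. The SDs around these means were 299, 4200 and 1789. The least steady were TBCA, a folding cofactor of tubulin (SD 1.75), EIF4E1B, a germ-cell form of the cap-binding protein (SD 1.11), and PPFIBP1, a liprin of cell contacts (SD 0.91).

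In TBCA, 2 arrays of different doses set the spread. Its net intensity was 30864, 37854 and 24560 in the control, 21829, 26165 and 1677 at 10 µM and 1869, 18968 and 23122 at 20 µM. The 2 low values were on 10 µM replicate 3 and 20 µM replicate 1. EIF4E1B had 1640 and PPFIBP1 had 1969 on 20 µM replicate 2, where every other array gave at least 15056 and 15208. Besides these, UBE2J2, FAM131A and C22orf39 also fell under 0.25 of their own 9-array median on that array, and no member did so on another array except TBCA.

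After 10 µM baicalein, the quantile-normalized members lay on both sides of the control, whereas 169 of 200 lay below it when arrays were scaled by the median alone (given with the scaling further on). No member passed an adjusted p of 0.05 in limma, and neither did any other of the 25378 named spots (0.00%), the lowest adjusted p being 0.999. Differences from the control had a median of -0.015 over the members and 0.0012 over all named spots, with 91 members higher and 109 lower. At an unadjusted p under 0.05, 2 members were higher (1.80% of all named spots were) and 1 was lower (1.89%). Groups that did not overlap were seen for 6 members upward and 14 downward, where 5.05% and 5.04% of all named spots did the same, that is at or near the background. When replicate numbers entered as a block (arrays of 1 number were scanned together), 9 members were higher (1.65% of all named spots) and 2 lower (1.77%).

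The member with the lowest p was FAM178A, whose product SLF2 brings the SMC5/6 complex to damaged DNA. It had 13.96, 13.73 and 14.58 at 10 µM, against 13.53, 13.33 and 13.54 in the control, with no overlap, and the difference was 0.62 ± 0.21 (SE, unadjusted p = 0.010, adjusted p = 0.999 by limma). Its highest value, that of replicate 3, was 23829 in net intensity where all other arrays lay between 10922 and 15218, and without that array the difference was 0.38 ± 0.20 (unadjusted p = 0.083). The other bright spot of the name differed by 0.32 ± 0.42 (unadjusted p = 0.46) and another, dim one by -0.010 ± 0.11 (unadjusted p = 0.93). PITPNM1, a phosphatidylinositol transfer protein, had 15.35, 15.46 and 15.28 at 10 µM, against 15.25, 15.22 and 15.19 in the control (0.14 ± 0.06, unadjusted p = 0.033), and without 10 µM replicate 2 the difference was 0.09 (unadjusted p = 0.17). FASTK, a kinase-like protein of mitochondrial RNA processing, and CELF3, an RNA-binding protein, differed by 0.27 and 0.24 (unadjusted p = 0.068 and 0.077). Among the members on the lower side, DDX31, an RNA helicase, had 15.09, 15.09 and 14.79 at 10 µM, against 15.18, 15.41 and 15.06 in the control (-0.23 ± 0.10, unadjusted p = 0.046), and the groups overlapped by 1 array. Without 20 µM replicate 2 and control replicate 2 its difference was -0.13 (unadjusted p = 0.17), and without 10 µM replicate 3 it was -0.12 (unadjusted p = 0.25). TUBA4B, C3orf70 and NAA40 differed by -0.25, -0.40 and -0.17, with unadjusted p of 0.059, 0.076 and 0.062. The members' median differences within the scan batches of replicates 1, 2 and 3 were -0.031, -0.0098 and -0.023.

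After 20 µM baicalein, more members lay below the control than above it. The median difference was -0.11 over the members and -0.0037 over all named spots, with 46 members higher and 154 lower (77.0%, against 50.9% of all named spots). This was not particular to the members. Over the 700 other gene spots above the empty spots on all 9 arrays the median was -0.19, with 85.3% lower. No member and no other named spot passed an adjusted p of 0.05 in limma (0.00%), with a lowest adjusted p of 0.876. At an unadjusted p under 0.05, 15 members were lower (2.44% of all named spots were) and 0 were higher (2.47%). The groups did not overlap for 25 members downward and 3 upward, against 6.02% and 4.66% of all named spots. This comparison shares its control arrays with that of 10 µM.

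The lowest p belonged to NAA40, the acetyltransferase that modifies the N-termini of histones H4 and H2A. Its levels were 14.97, 14.87 and 14.90 in the control, 14.74, 14.78 and 14.71 at 10 µM and 14.67, 14.66 and 14.53 at 20 µM, and no array of a dose overlapped the next. At 20 µM it differed from the control by -0.29 ± 0.08 (SE, unadjusted p = 0.0034, adjusted p = 0.876 by limma), with -0.30, -0.21 and -0.37 within the batches of replicates 1, 2 and 3. PTPRA, a receptor tyrosine phosphatase that activates Src kinases, had 14.87, 14.79 and 14.88 at 20 µM, against 15.10, 15.40 and 15.01 in the control (-0.32 ± 0.09, unadjusted p = 0.0042), and it differed by -0.22 without control replicate 2 (unadjusted p = 0.018) and by -0.18 without 20 µM replicate 2 as well (unadjusted p = 0.042). The 3 arrays of 20 µM were lower than all 6 others for this gene. FUBP3, a protein that binds single-stranded nucleic acid, had 14.52, 14.29 and 14.58 at 20 µM, against 14.90, 14.68 and 14.83 in the control (-0.34 ± 0.12, unadjusted p = 0.013, and 0.018 without the 2 arrays of raised background). C3orf70, a gene without a settled role, had 13.48, 13.12 and 13.78, against 13.91, 14.32 and 13.92 (-0.59 ± 0.21, unadjusted p = 0.014), with differences of -0.43, -1.20 and -0.14 in replicates 1, 2 and 3 and of -0.27 without the same 2 arrays (unadjusted p = 0.17). A second, dim spot of C3orf70, which never exceeded the empty spots, differed by 0.26 ± 0.12, and that of FUBP3 by 0.028 ± 0.11.

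On the higher side, PPFIA3, a liprin of the presynaptic zone, differed by 0.26 (unadjusted p = 0.074), PITPNM1 by 0.08, ATF3, a transcription factor of the stress response, by 0.19 and CAV2, a caveolin, by 0.22 (unadjusted p of 0.169 to 0.191). Before any scaling, mean net intensity at 20 µM was below the control for PITPNM1 (39174 against 40069), ATF3 (21385 against 23042) and CAV2 (17214 against 18085). For PPFIA3 it was above (17002 against 16828). A second, dim spot of CAV2 differed by -0.27 ± 0.20. Of the members named for their lists, PSMC5, an ATPase of the proteasome's regulatory particle, had 17122, 11108 and 21306 in net intensity at 20 µM, against 25218, 29973 and 24474 in the control, and differed by -0.43 ± 0.19 (unadjusted p = 0.043). Its lowest value was that of 20 µM replicate 2, and without that array the difference was -0.17 (unadjusted p = 0.22). PSMA1, an alpha subunit of the same complex, differed by 0.04 (unadjusted p = 0.85), the histone genes HIST1H4B and HIST1H2AK by -0.11 and -0.15 (unadjusted p of 0.51 and 0.29), and CYP1A2 by 0.08 (unadjusted p = 0.46).

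**Figure D3:**
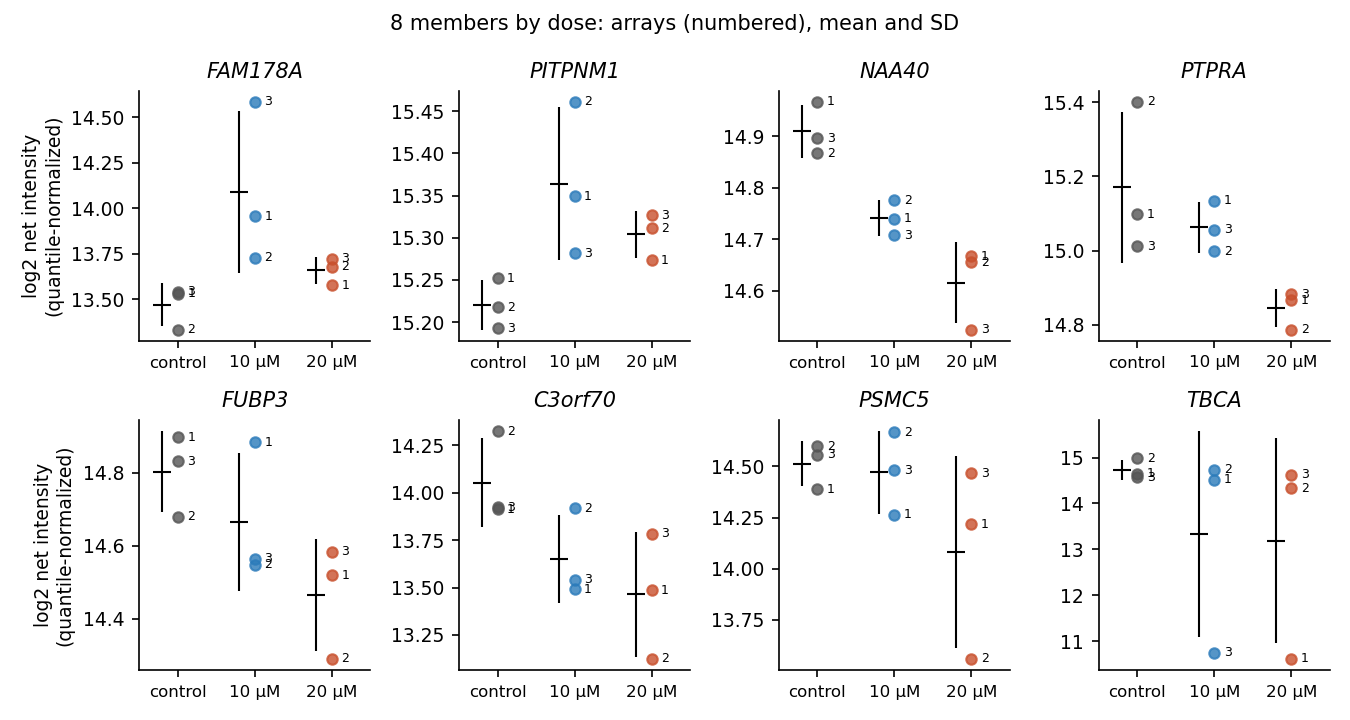
Quantile-normalized log2 net intensity of 8 members by dose. Points are arrays with their replicate numbers, and bars beside them give the mean and SD of 3 arrays, and each panel has its own axis. NAA40 descends without overlap between doses, the highest FAM178A value is on 10 µM replicate 3, and TBCA is near 10.6 to 10.8 on 1 array of each baicalein dose.

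After quantile normalization, the shift at 20 µM rested largely on 20 µM replicate 2. Without it, the median difference from the control was -0.027, with 81 members higher and 119 lower, and 7 members were higher (3.31% of all named spots) and 12 lower (2.35%) at an unadjusted p under 0.05. Of the 15 members counted above, 7 were among these 12, namely NAA40, PTPRA, C3orf70, IGSF8, FAM131A, JHDM1D and C22orf39. FAM131A and C22orf39 differed by -1.21 and -1.14 with that array and by -0.40 and -0.35 without it. Without control replicate 2 as well, the median was -0.041 and NAA40, PTPRA, FUBP3 and FAM131A were the 4 of the 15 that stayed at an unadjusted p under 0.05. With all arrays, NAA40 did not stay there with background from neighbouring spots, raw intensity, cyclic loess normalization or bright spots only. PTPRA did not with background from neighbouring spots, cyclic loess or the t-test of the study's methods. In these fits FUBP3 always stayed, and FAM131A did in all but the t-test. Within the batches of replicates 1, 2 and 3 the median difference of the members was -0.067, -0.19 and -0.012.

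The size of the shift also followed the scaling of the arrays. With each array scaled by its median alone, and no quantile step, the members differed from the control by a median of -0.37 at 20 µM, with 197 of 200 lower, and by -0.18 at 10 µM, with 169 of 200 lower. At 20 µM, 121 members then had groups that did not overlap, all 3 arrays lower (7.74% of all named spots), and 109 had an unadjusted p under 0.05, all lower (4.04% of all named spots), while none passed the adjusted threshold. At 10 µM these counts were 50 (5.53%) and 13 (2.09%), and at 20 µM against 10 µM, where 193 of 200 were lower by a median of -0.18, they were 29 (6.44%) and 13 (2.60%). Without 20 µM replicate 2 and control replicate 2, this scaling gave medians of -0.29 at 20 µM, with 188 lower, and -0.14 at 10 µM, with 168 lower, and 45 and 8 members at an unadjusted p under 0.05, all lower (3.74% and 2.65% of all named spots). Here each replicate number gave a median below 0, with -0.36, -0.47 and -0.21 at 20 µM and -0.27, -0.19 and -0.075 at 10 µM. With this scaling the shift was smaller among the 50 brightest members (-0.19 at 20 µM) than among the next 50 (-0.41) or the other 100 (-0.42). It was not confined to the members, since the 700 other gene spots above the empty spots on all 9 arrays had a median of -0.49 at 20 µM and -0.12 at 10 µM. When spots above the empty spots on all 9 arrays were normalized on their own, the members' medians were -0.0060 at 20 µM and -0.015 at 10 µM.

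**Figure D4:**
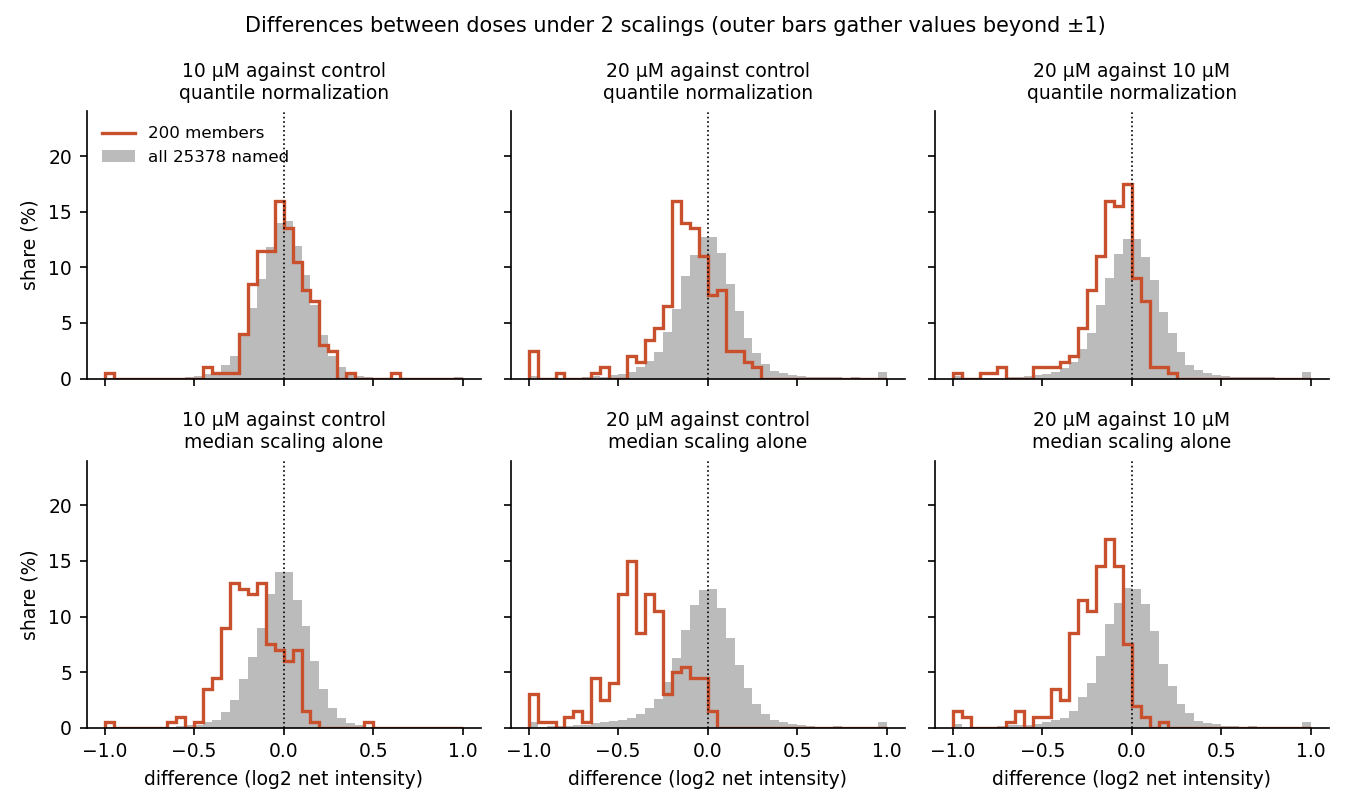
Share (%) of the 200 members (line) and of all 25378 named spots (grey) by difference in log2 net intensity, in the comparisons of 10 µM with control, 20 µM with control and 20 µM with 10 µM. The upper row is quantile-normalized and the lower row scaled by the median alone. At 20 µM against control the members' median is -0.11 above and -0.37 below, and that of all named spots stays within 0.012 of 0.

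Between the doses, 163 members were lower and 37 higher at 20 µM than at 10 µM, with a median difference of -0.094, against -0.0035 over all named spots. Over the 700 other gene spots above the empty spots on all 9 arrays it was -0.19, with 84.4% lower. No member or other named spot passed the adjusted threshold (0.00%, lowest adjusted p 0.866), 3 members were lower at an unadjusted p under 0.05 (2.53% of all named spots were) and 0 were higher (2.35%), and 14 members against 0 had groups apart (5.74% downward and 4.58% upward). The 3 were OLFM2, an olfactomedin, GEFT, a guanine nucleotide exchange factor, and PTPRA. OLFM2 had 15.14, 15.02 and 15.17 at 20 µM, against 15.33, 15.34 and 15.27 at 10 µM (-0.21 ± 0.07, unadjusted p = 0.014), with these groups apart, while its control arrays spread between 15.11 and 15.36. PTPRA differed by -0.22 ± 0.09 (unadjusted p = 0.037) with the groups apart, and GEFT by -0.28 ± 0.12 (unadjusted p = 0.038) with an overlap of 1 array. Next came ZCCHC10 at -0.29 (unadjusted p = 0.051). On the higher side TLE2, a Groucho corepressor, SLC5A10, a sodium-coupled sugar transporter, TAF1, the largest subunit of TFIID, and RNF2, a ubiquitin ligase of a Polycomb complex, differed by 0.22, 0.09, 0.19 and 0.16, with unadjusted p of 0.209 to 0.366 and overlapping groups. Without 20 µM replicate 2 the median was -0.028 and OLFM2 was the 1 of the 3 named above with an unadjusted p under 0.05 (0.048). In that fit 4 members were higher (3.47% of all named spots) and 3 lower (2.48%) at this p. Within the batches of replicates 1, 2 and 3 the median was -0.051, -0.18 and 0.00. With the replicate number as a block, 8 members were lower (2.53% of all named spots) and 0 higher (2.42%) between the doses, and 19 lower (2.45%) and 0 higher (2.42%) at 20 µM against control, the 15 counted above among them.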

How the data were processed

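Per the file headers, the scanner files deposited by the authors hold raw, background and net intensity (raw minus background) for 39200 spots, of which 29187 carry gene probes and 8926 are empty. The study's methods name OneArray Human v5 slides, Cy3 labelling, log2 transformation, median and quantile normalization and an equal-variance test. The authors' table of processed values, deposited as scores with scale and centring not stated in the sources read, served as an alternative. Its differences carried the sign of those from net intensity for all 15 members counted at 20 µM. That was largely fixed beforehand, since the table stems from the same arrays and 184 of the 200 members were lower in it.

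From net intensity, arrays were scaled to a common median over the gene probes, floored at 50 (no value lay below 483), log2-transformed and quantile-normalized. limma 3.58.1 in R 4.3.3 (lmFit, eBayes with trend) fitted the 3 groups together, with Benjamini-Hochberg adjustment over 25378 named spots. No spots were averaged. No exact permutation test was run, as 0.1 is the smallest p that 3 against 3 allows. The fit was first checked on simulated data.

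Headers place the 9 arrays in 3 scan batches of 3, each with 1 array of every group and a single replicate number, and differences within a batch are named by that number. Over all named spots, deviations of same-numbered arrays from their group means correlated at -0.016 to 0.087, below the 0.1 set for taking numbers as pairs. Of these spots 73.1% passed the empty spots on no array, so this range says little about bright spots. The replicate block was run as an alternative, and its counts stand beside each comparison. The p-values of single members are those of the limma fit without the block. Over the members, deviations of same-numbered arrays correlated at 0.23 to 0.45 between 10 µM and control, and those of differing numbers at -0.34 to -0.030. Between 20 µM and control the same number gave -0.035 to 0.11 and differing numbers -0.25 to 0.22. Between the doses these ranges were -0.15 to 0.11 and -0.40 to 0.46.

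The members and gene lists were chosen with earlier results of these data known. Named genes were the 15 brightest, the 4 higher and 4 lower members of lowest unadjusted p in each comparison, the 3 most and 3 least steady, those next to the limit, and members of lists under 60 genes. RPS15, RPL23, RPL10, KCNJ4, TRPV6, OR14C36, OR13J1, ATP5G1, CCL20, SNORA81, HMGXB4, ETS2, UBE2J2, FAM131A, C22orf39, IGSF8 and JHDM1D were named after their values were seen, as were the genes of the lists that are no members. Symbols, windows and coordinates are from RefSeq on GRCh38.p14. Alternatives were other background corrections, normalizations and variance priors, array weights, the 6 arrays of a comparison, the methods' t-test, the block, the authors' table and leaving out each array. A background taken from neighbouring spots and leaving out 2 arrays together, also with median scaling alone, were added after seeing the data. Some genes that the rule names are not reported here. Figures were drawn with matplotlib 3.10.9.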

Additional observations from a re-analysis of the deposited data

Results flagged for a closer look

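Some control spots of the array design, which no comparison above uses, were bright on 1 array. Those named NAC1 had a median net intensity of 31757 and those named RCP1 of 35436 on 20 µM replicate 2, against 1313 to 1595 and 1179 to 1488 on the other 8 arrays, control arrays included. It is the array on which 55.5% of the spots listed before a member were above the empty spots. Spots named GAM had 36871 on that array and 37638 on control replicate 2, the other array with raised local background at the members, against 46043 to 49615 on the other 7. The part of these spots in the members' values was not tested.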

How the results depend on the processing

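Under every alternative no member passed an adjusted p of 0.05, so the counts here are of members at an unadjusted p under 0.05, 3 at 10 µM against control, 15 at 20 µM against control and 3 at 20 µM against 10 µM. At 10 µM against control the count was 13 with the 6 arrays of the comparison, median scaling alone or the methods' t-test, 11 with cyclic loess, 6 with array weights or bright spots only, 1 with the authors' table, normexp or neighbourhood background, and 0 with raw intensity, with 0.784% to 5.09% of all named spots past the same p in these fits. At 20 µM against control it was 109 with median scaling alone, 20 with cyclic loess, 10 with bright spots only and 9 with the t-test or neighbourhood background (1.77% to 6.94% of all named spots over the alternatives). Between the doses it was 13 with median scaling alone, 7 with the t-test, 5 with raw intensity, 1 with normexp or bright spots only and 0 with cyclic loess (3.26% to 5.95%). The direction of these members also changed with the fit. With cyclic loess, 13 members were higher and 7 lower at 20 µM against control (2.73% and 2.12% of all named spots). At 10 µM against control, cyclic loess gave 10 higher and 1 lower (1.86% and 2.05%). With bright spots only, 4 were higher and 6 lower at 20 µM against control (2.88% and 2.25% of the 799 spots tested). The t-test gave 0 after Benjamini-Hochberg adjustment in each comparison.

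The replicate number as a block moved the counts to 11 at 10 µM, 19 at 20 µM and 8 between the doses (3.42%, 4.87% and 4.94% of all named spots), and changed no adjusted call. The numbers were not taken to pair the arrays.

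Leaving out 1 array at a time gave counts of 1 (without 20 µM replicate 1) to 17 (without 20 µM replicate 2) at 10 µM, 11 (without control replicate 1) to 26 (without 20 µM replicate 3) at 20 µM and 3 to 18 (without 20 µM replicate 3) between the doses, where 3.41% to 4.17%, 4.15% to 7.64% and 4.39% to 7.30% of all named spots passed. Leaving out 20 µM replicate 2 and control replicate 2 together gave 10, 11 and 9 (3.98%, 5.42% and 5.86% of all named spots). Of these members 4, 2 and 4 were higher and 6, 9 and 5 lower. With median scaling alone the counts were 8, 45 and 10 (4.3%, 6.94% and 5.95%), all lower, where the members' medians were -0.137, -0.290 and -0.137. Among all named spots, 2 passed the adjusted threshold at 20 µM without 20 µM replicate 1 and 1 without 20 µM replicate 3, which also gave 1 between the doses, and none was a member.

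The median difference of the members at 10 µM was -0.18 with median scaling alone, -0.032 with neighbourhood background, -0.028 with raw intensity and -0.0014 to -0.038 without single arrays. At 20 µM it was -0.37 with median scaling alone, -0.0060 with bright spots only, -0.014 with cyclic loess and -0.027 to -0.136 without single arrays. Between the doses it was 0.0011 with cyclic loess and -0.028 to -0.124 without single arrays. In the units of the authors' table, which are not log2 of net intensity, these medians were -0.158, -0.915 and -0.719. The cause of these moves was not tested. Neighbourhood background and leaving out 2 arrays together were chosen after seeing the data. Ranking by the 99th percentile limit kept 198 of the 200 members and ranking by raw intensity 196. Raw intensity passed 60000 on some array for 20 members and on all arrays for 0, and background made up 23.7% to 41.8% of the members' median raw signal, which limits how small a change can be seen.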
